A study of Mus musculus with 12 samples.

Results

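The CpGs described here were almost fully methylated in untreated cells and were at 80% or more in the pooled reads of the free 3-drug treatment. A CpG is a cytosine followed by a guanine, the site at which mammalian DNA carries most of its methyl groups. Of 9742290 CpGs listed in any of 12 libraries, 776102 on the 19 autosomes had 5 or more reads in at least 2 PBS and 2 F-MTAza libraries and 20 or more pooled reads in each of these groups. Of those, 342621 were at 90% or more in pooled PBS reads, and 48572 of the 342621 (14.2%) were also at 80% or more in pooled F-MTAza reads. These 48572 are called the F-MTAza-high CpGs. The 108548 CpGs (31.7%) with the same PBS level and 40 to 60% in F-MTAza served as comparison CpGs. Both sets were selected on their PBS and F-MTAza levels, which are given as a description only, whereas NP-MTAza and Aza replicate 3 took no part in the choice.

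Reduced representation bisulfite sequencing (RRBS) reads methylation in short fragments that the enzyme MspI releases at CCGG sites, with 3 libraries for each of 4 groups. All groups were Pkd1 heterozygous (PKD1-Het) cells at passage 3, isolated from proximal renal tubules of Pkd1 flox/-:TSLargeT mice, and so all carry the large T transgene. For 24 h they received PBS, free Aza (5-aza-2′-deoxycytidine, 50 µM), free Aza with 300 µM metformin and 10 µM tolvaptan (F-MTAza), or those 3 drugs at the same doses in micelles (NP-MTAza). The labels do not say that replicates were separate cultures, so p-values and SDs measure the spread between libraries only, which may be technical.

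DNA methyltransferase 1 copies CpG methylation onto the new strand each time DNA is replicated. Aza is built into replicating DNA and traps DNA methyltransferases, so that newly made strands go unmethylated. Stretches rich in CpGs, called CpG islands, lie at the start of many genes and are mostly free of methylation, and those that do carry it belong mainly to silenced, imprinted or developmental genes.

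Some facts of the series bear on what follows. The 12 libraries held between 25336747 and 65817118 reads over the CpGs listed, with medians of 7 to 9 reads per CpG. Levels at single CpGs correlated between 0.644 and 0.916 among 10 of the libraries, as a description across CpGs, but between -0.0027 and 0.00249 when one of the pair was Aza replicate 1 or 2, and at 0.00043 between those 2 libraries. Aza replicates 1 and 2 were left out of the comparisons, and all values named Aza come from replicate 3, a single library. The cell type could be checked by promoter methylation only, since the files hold no expression. In PBS the promoter of Lrp2, the megalin receptor of the proximal tubule, was at 24.1% over 79 CpGs, whereas those of Hnf4a, a transcription factor of the proximal tubule, and Cdh1, the epithelial cadherin, were at 73.0% and 86.6%.

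The following sequences show what the regions with the most F-MTAza-high CpGs looked like. They are taken from mouse build mm9, plus strand, 5′ to 3′, with F-MTAza-high CpGs in capitals, and each is the window of up to 200 bases with the most such CpGs outside untranslated regions.
Trim71, coding sequence, chr9:114472097-114472235: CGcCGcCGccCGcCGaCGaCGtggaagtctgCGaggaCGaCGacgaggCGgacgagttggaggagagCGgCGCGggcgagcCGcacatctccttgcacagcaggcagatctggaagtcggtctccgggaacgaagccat
Ttc34, promoter, chr4:154230193-154230308: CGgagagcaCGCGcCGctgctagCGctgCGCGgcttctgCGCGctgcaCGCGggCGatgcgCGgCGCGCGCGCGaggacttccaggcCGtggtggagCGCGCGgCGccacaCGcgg
Zfp316, coding sequence, chr5:144016490-144016689: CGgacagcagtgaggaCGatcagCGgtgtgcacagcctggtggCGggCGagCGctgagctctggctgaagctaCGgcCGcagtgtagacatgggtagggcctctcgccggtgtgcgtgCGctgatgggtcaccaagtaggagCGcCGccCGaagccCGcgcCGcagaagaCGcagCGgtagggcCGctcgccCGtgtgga
Near Ankrd33, intergenic, chr15:100883390-100883589: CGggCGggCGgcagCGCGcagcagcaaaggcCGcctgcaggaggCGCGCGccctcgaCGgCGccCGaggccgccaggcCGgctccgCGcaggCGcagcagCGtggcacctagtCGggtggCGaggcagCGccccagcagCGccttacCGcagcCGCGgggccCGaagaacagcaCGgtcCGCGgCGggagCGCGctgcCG

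For contrast, the 2 regions with the most comparison CpGs are shown the same way, with the comparison CpGs in capitals.
Near Rpl26, upstream, chr11:68714064-68714232: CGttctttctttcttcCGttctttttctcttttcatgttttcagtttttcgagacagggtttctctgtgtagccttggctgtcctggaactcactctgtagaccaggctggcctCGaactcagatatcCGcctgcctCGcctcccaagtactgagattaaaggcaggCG
Dip2a, exon and intron, chr10:75757174-75757356: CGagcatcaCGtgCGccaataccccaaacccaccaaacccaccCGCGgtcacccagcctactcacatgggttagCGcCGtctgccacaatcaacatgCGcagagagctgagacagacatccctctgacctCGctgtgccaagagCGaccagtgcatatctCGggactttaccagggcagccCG
The 4 F-MTAza-high windows held 21, 26, 23 and 34 CpGs in 139, 116, 200 and 200 bases, of which 15, 24, 18 and 31 were F-MTAza-high. The comparison windows held 7 and 12 CpGs in 169 and 183 bases.

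The question asked of the held-out libraries was whether CpGs that kept their methylation in F-MTAza also kept it in NP-MTAza and Aza. They lost less than the comparison CpGs in every held-out library, but they did lose methylation. In PBS, which chose them, the F-MTAza-high CpGs were at 97.2%, 97.6% and 97.3% of reads, and in F-MTAza at 85.1%, 85.6% and 85.7%. In NP-MTAza they were at 72.7%, 72.7% and 70.9%, and in Aza at 71.1%. All 4 held-out values lay below all 3 F-MTAza values, so the 85.4% ± 0.335 (SD, n = 3) of the libraries that chose the CpGs was not the level at which other libraries found them.

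The comparison CpGs were at 57.8%, 58.4% and 56.7% in NP-MTAza and at 56.7% in Aza. The 342621 CpGs at 90% or more in PBS as a whole were at 62.7%, 63.3% and 61.9% in NP-MTAza and at 62.3% in Aza. The F-MTAza-high CpGs therefore stood above both sets in each of the 4 held-out libraries. Their lead over the comparison CpGs was 14.9, 14.3 and 14.2 percentage points in NP-MTAza and 14.4 points in Aza, with a mean of 14.5 ± 0.272 points (SD, n = 4). An exact permutation test by sign flips gave p = 0.13, two-sided, which is the smallest value 4 libraries allow, and 0.25, again the smallest, for the 3 NP-MTAza libraries alone. In the F-MTAza libraries that chose them the lead was 32.0 points. With 100 or more pooled reads asked of each CpG, 571 F-MTAza-high CpGs remained and the held-out lead was 27.0 points. The 24 bases centred on the CpG occurred once in the genome for 66.2% of these 571, against 87.7% of all F-MTAza-high CpGs, and the part of repeated sequence in that lead was not tested. In the left-out Aza replicates 1 and 2 both sets were between 44.3% and 46.1%, with differences of -0.257 and 0.789 points.

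**Figure D1:**
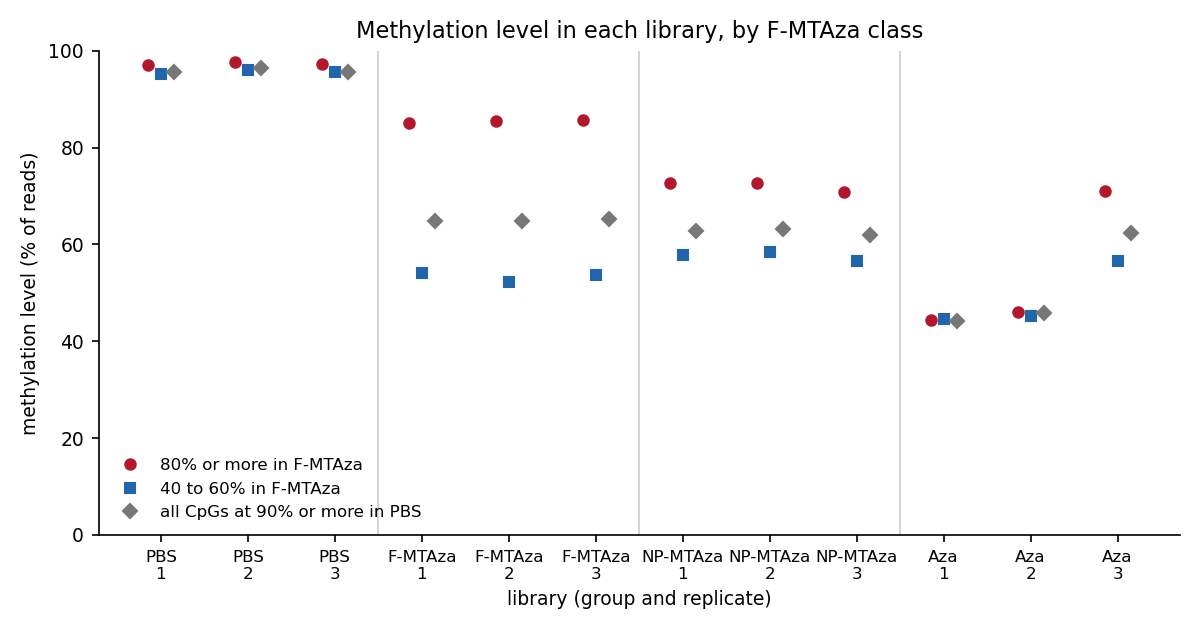
Methylation level (percent of reads, vertical axis) of the F-MTAza-high CpGs (red), the comparison CpGs (blue) and all CpGs at 90% or more in PBS (grey) in each of the 12 libraries; each point is 1 library. In NP-MTAza and Aza replicate 3 the red points lie 14.2 to 14.9 points above the blue ones, and in Aza replicates 1 and 2 the sets lie together.

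The same was seen when an F-MTAza library was kept out of the choice and measured instead. CpGs chosen without F-MTAza replicate 1 were at 74.6% in that library, against 60.2% for comparison CpGs chosen the same way. The values were 73.8% and 58.7% for replicate 2, and 74.8% and 59.8% for replicate 3. A library that took no part in the choice thus gave a lead of 14.3 to 15.1 points within the free-drug group too, close in size to that in NP-MTAza. The levels themselves were below the 85.4% of the F-MTAza-high CpGs in the F-MTAza libraries that chose them. They lay nearer the NP-MTAza means of the CpGs chosen in this way, 71.4 to 71.7%.

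At single CpGs the retention was partial. Of 45415 F-MTAza-high CpGs with 20 or more pooled NP-MTAza reads, 10529 (23.2%, 95% Wilson interval 22.8 to 23.6%) were at 80% or more in pooled NP-MTAza reads, against 2.53% of comparison CpGs and 7.41% of all CpGs at 90% or more in PBS. Intervals here cover counting error only, and neighbouring CpGs on the same fragment are read together. Most F-MTAza-high CpGs, 59.99%, were between 60 and 80%, and 16.2% between 40 and 60%. Those at 80% or more in each of the 4 held-out libraries numbered 1895 of 41865 (4.53%), against 73 of 96108 comparison CpGs (0.076%).

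Levels were also taken by depth. F-MTAza-high CpGs with 20 to 29 F-MTAza reads were at 69.9% ± 1.38 in NP-MTAza (SD, n = 3), those with 50 to 99 reads at 73.6% ± 1.06 and the 662 with 100 or more reads at 80.1% ± 0.644. The lead over comparison CpGs of the same depth grew likewise, from 10.5 points to 15.8 and 26.7 points as a mean over the 4 held-out libraries. The share at 80% or more in pooled NP-MTAza reads was 22.0% at 20 to 29 reads, 24.1% at 30 to 49 and 24.0% at 50 to 99, and 35.3% among the 662 deepest CpGs. For comparison, 0 of 3823 comparison CpGs of the last depth were at 80% or more, which allows a share of up to 0.0785%. CpGs just inside and just outside the threshold hardly differed: those at 80 up to 82% in F-MTAza were at 69.4% in NP-MTAza and those at 78 up to 80% at 69.1%, while the 3304 at 95% or more were at 79.8%.

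Each CpG was also tested between NP-MTAza and PBS with the likelihood ratio test on pooled reads that methylKit uses by default, asking for q under 0.01 (Benjamini-Hochberg) and at least 35 points of difference. Over all 815900 CpGs that reached 5 reads in each of the 6 libraries, 25.9% were called lower in NP-MTAza and 0.00478% higher. Of 31746 F-MTAza-high CpGs in that table, 6879 (21.7%) were called lower, against 57.7% of comparison CpGs and 43.5% of all CpGs at 90% or more in PBS. CpGs that start under 35% in PBS cannot be called lower, so the shares that start from the same PBS level are those of the comparison CpGs and of all CpGs at 90% or more in PBS. Within the F-MTAza-high CpGs the share called lower ran from 5.82% where CpGs were dense to 40.4% where they were sparse, on the density measure described next.

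CpG density, which the rule did not use, was higher around the F-MTAza-high CpGs. It was counted as the CpGs in the window of 100 bases on each side, the CpG itself included. Of the F-MTAza-high CpGs 21.0% had a density of 16 or more, against 1.23% of comparison CpGs and 5.63% of all CpGs at 90% or more in PBS. Read the other way, 5.16% of CpGs with no other CpG in the window were F-MTAza-high, 6.07% at a density of 2 to 3, 10.2% at 4 to 7, 21.4% at 8 to 15, 46.4% at 16 to 24 and 66.2% at 25 or more. The comparison share fell over the same classes from 46.4% to 3.85%. The direction held on 19 of 19 autosomes, where the dense share of F-MTAza-high CpGs was between 12.2 and 29.4% and that of comparison CpGs between 0.317 and 2.21%.

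The density gradient was present in the held-out libraries without any use of the F-MTAza values. Among all CpGs at 90% or more in PBS, those with a density of 16 or more were at 77.0%, 76.7% and 74.8% in NP-MTAza and at 75.2% in Aza. Those with 3 or fewer were at 59.3%, 59.7% and 58.5% in NP-MTAza and at 58.6% in Aza, so that no library of one class overlapped the other. The difference was 16.9 ± 0.62 points (SD, n = 4; exact permutation test by sign flips, two-sided p = 0.13, the smallest possible), against 1.64 ± 0.278 points in PBS (n = 3), where the rule held both classes at 90% or more. At a fixed density of 4 to 7 the F-MTAza-high CpGs stood 10.3 points above comparison CpGs, and at 25 or more 17.2 points, although only 241 comparison CpGs lay there.

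**Figure D2:**
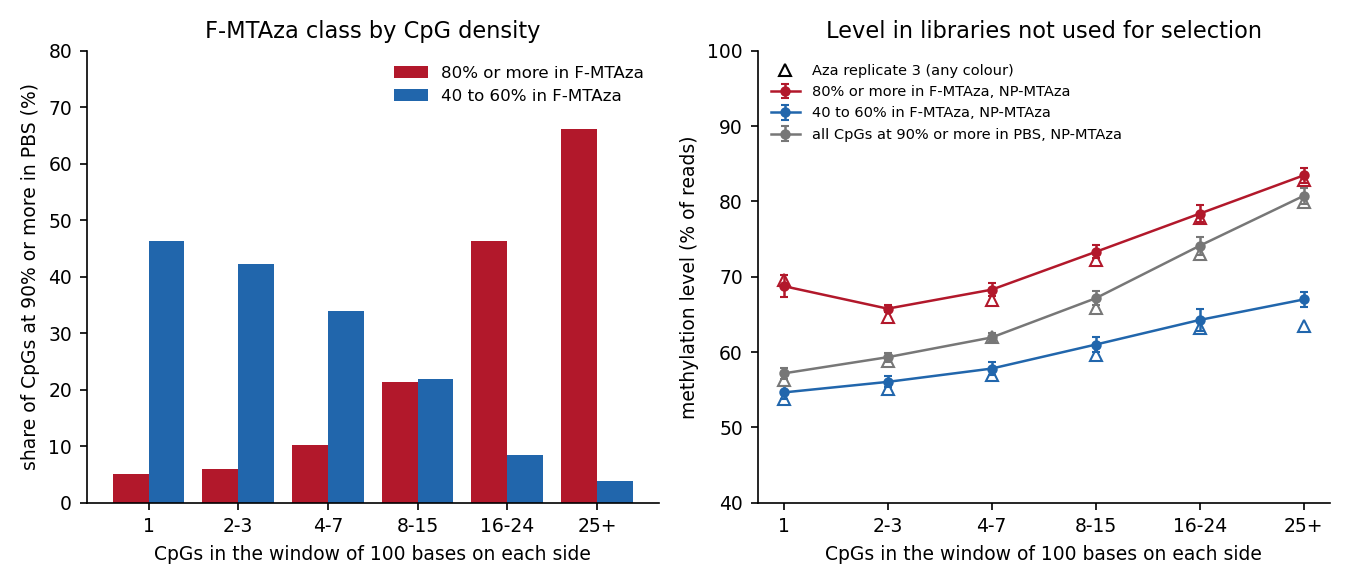
Left, share of all CpGs at 90% or more in PBS that were F-MTAza-high (red bars) or comparison CpGs (blue bars), in percent, by the number of CpGs in the window of 100 bases on each side. Right, methylation level (percent of reads; mean ± SD of 3 NP-MTAza libraries, triangles Aza replicate 3) of both sets and of all CpGs at 90% or more in PBS (grey). The red share rises from 5.16% to 66.2% and the grey level from 57.2% to 80.7% across the classes.

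Other sequence features went with density. The median GC content of the window was 54.5% for F-MTAza-high CpGs, 49.01% for comparison CpGs and 50.5% for all CpGs at 90% or more in PBS. The median ratio of observed to expected CpGs was 0.591, 0.405 and 0.45. Windows that had a GC content of 50% or more together with a ratio of 0.6 or more, the usual criteria of a CpG island without its length, held 39.0% of F-MTAza-high CpGs and 7.81% of comparison CpGs.

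The bases next to the CpG differed as well. A G stood before the CpG in 35.9% of F-MTAza-high CpGs and 24.4% of comparison CpGs, and a C after it in 36.2% and 25.1%. Both together, the motif GCGC, which reads the same on either strand, was found at 12.6% of F-MTAza-high CpGs, 6.15% of comparison CpGs and 8.13% of all CpGs at 90% or more in PBS. At a fixed density of 4 to 7 the motif shares were 9.29% and 6.14%, a smaller gap. There, CpGs in GCGC were at 63.2% ± 0.689 in NP-MTAza and other CpGs at 61.9% ± 0.577 (SD, n = 3 each), and Aza was at 62.2% and 62.0%. The ranges of these 2 classes over the NP-MTAza libraries touched. At a density of 8 to 15 they lay apart, with CpGs in GCGC at 69.8% ± 0.633 in NP-MTAza and 69.4% in Aza and other CpGs at 66.7% ± 1.00 and 65.4%. They lay apart at 2 to 3 as well, at 60.7% ± 0.613 and 59.3% ± 0.581, and overlapped at 16 to 24, at 75.5% ± 0.973 and 73.8% ± 1.28 (SD, n = 3 each). CpGs in GCGC were the higher in each of the 4 held-out libraries in all 4 density classes from 2 to 24. In contrast, CCGG, the site that MspI cuts, held 2.65% of F-MTAza-high CpGs, 9.0% of comparison CpGs and 6.13% of all CpGs at 90% or more in PBS.

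Exactly repeated sequence was about as frequent around both sets. Only identical strings of 24 bases were counted, without a repeat annotation, so diverged repeats went uncounted. The 24 bases centred on the CpG occurred once in the genome for 87.7% of F-MTAza-high CpGs and 87.8% of comparison CpGs. Among such CpGs alone the held-out lead was 13.98 points. At the other end, 1026 F-MTAza-high CpGs lay in strings with over 1000 copies and were at 69.9% ± 0.856 in NP-MTAza (SD, n = 3).

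By position, F-MTAza-high CpGs lay near genes more often than the comparison CpGs. Promoters (2000 bp before to 500 bp after a start site) held 20.04% of them against 9.38%, and exons 21.6% against 11.5%. Introns held 27.4% against 41.2%, and intergenic sequence 31.0% against 37.9%. The median distance to a start site was 8882.5 bp against 16378 bp. In promoters the F-MTAza-high CpGs were at 76.5% ± 1.09 in NP-MTAza and 75.7% in Aza, and in introns at 69.4% ± 0.725 and 68.2% (SD, n = 3). The median density of the F-MTAza-high CpGs was 16 in promoters and 6 in introns, so position and density moved together, and the part of each was not tested. Within 500 bp of a start site 29.2% of CpGs at 90% or more in PBS were F-MTAza-high, which fell to 11.3% beyond 50000 bp.

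F-MTAza-high CpGs no more than 200 bp apart were joined into runs. Of the set, 31.5% lay alone and 20.1% in runs of 2. Whether they lay in runs more often than comparison CpGs was not tested. F-MTAza-high CpGs in the longest runs kept most of their methylation in the held-out libraries. The 15291 that lay alone were at 68.1%, 68.2% and 66.9% in NP-MTAza and at 66.9% in Aza. The 2042 in the 76 runs of 20 or more were at 86.0%, 84.6% and 83.4% in NP-MTAza and at 84.2% in Aza. No library overlapped between these classes, and the classes between them were in order in each of the 4 libraries. The share at 80% or more in pooled NP-MTAza reads rose from 10.5% of those alone (95% Wilson interval 9.96 to 10.97%) to 35.2% in runs of 5 to 9 and 68.1% in runs of 20 or more (interval 66.0 to 70.1%). In the single-CpG test 32.9% of those alone were called lower in NP-MTAza than in PBS, against 8.46% of those in runs of 5 or more.

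Run size and density were only in part the same measure. At a density of 8 to 15 the F-MTAza-high CpGs were at 70.5% ± 0.812 in NP-MTAza when alone, 73.0% ± 0.955 in runs of 2 to 4 and 75.4% ± 0.749 in runs of 5 or more (SD, n = 3 each). At a density of 25 or more the values were 77.3% ± 3.46 for 65 CpGs alone and 83.9% ± 1.08 for 3791 CpGs in runs of 5 or more, whereas the 289 CpGs in runs of 2 to 4 were at 76.3% ± 2.06, below those alone. Within runs of 5 or more the level rose with density from 70.9% at 4 to 7 to 83.9% at 25 or more.

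**Figure D3:**
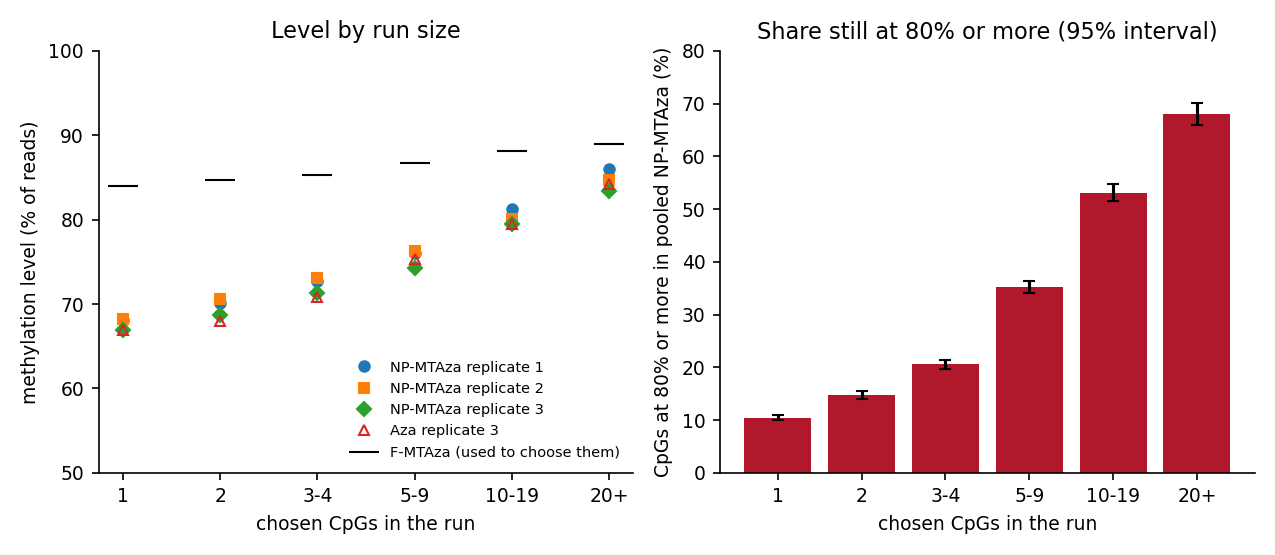
F-MTAza-high CpGs by the number of such CpGs in their run. Left, methylation level (percent of reads) in each held-out library, with the F-MTAza level that chose them as a black bar. Right, share at 80% or more in pooled NP-MTAza reads, with 95% Wilson intervals for counting error. The level in NP-MTAza rises from 67.7% for CpGs alone to 84.7% in runs of 20 or more, while the F-MTAza level rises from 84.0% to 88.9%.

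Neighbouring CpGs that the rule could not choose, because they had too few reads in PBS or F-MTAza, were measured next. Only those at 90% or more in pooled PBS reads were kept. Their PBS level, between 96.9 and 97.4% in every distance class, was therefore set by the choice and is given as a description only. Those 2 to 25 bp from an F-MTAza-high CpG were at 70.0%, 70.1% and 67.8% in NP-MTAza and at 68.1% in Aza. Those as near to a comparison CpG were at 60.8%, 61.1% and 58.8% in NP-MTAza and at 58.5% in Aza. The neighbours of F-MTAza-high CpGs were thus higher in each of the 4 libraries, and the gap narrowed with distance: at 1601 to 3200 bp the NP-MTAza means were 62.8% ± 0.967 and 60.9% ± 0.762 (SD, n = 3 each). The CpG density around these neighbours was not matched between the sets, and its part in these values was not tested.

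**Figure D4:**
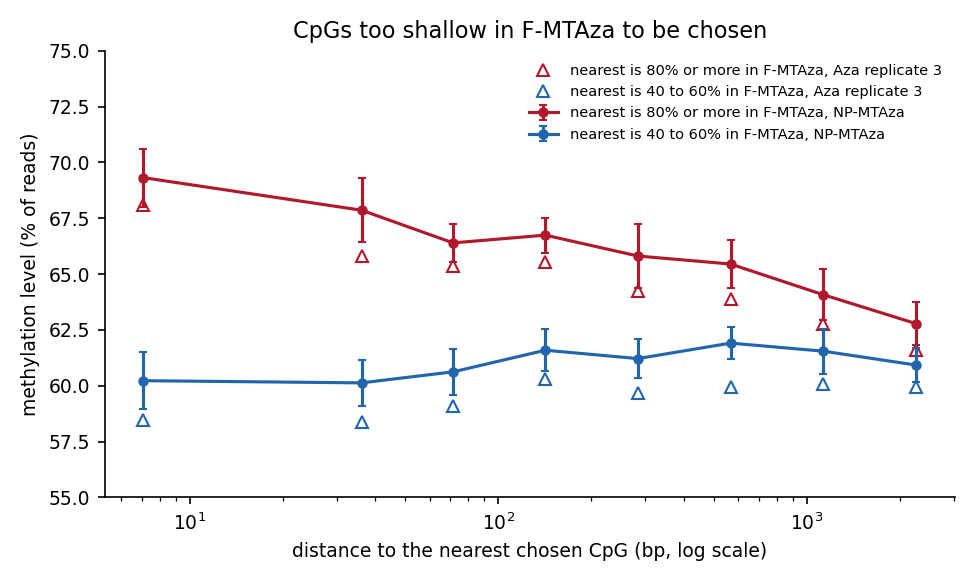
Methylation level (percent of reads) of CpGs at 90% or more in PBS that had too few reads in PBS or F-MTAza to be chosen. The horizontal axis gives the distance in bp (log scale) to the nearest F-MTAza-high CpG (red) or comparison CpG (blue). Lines give the mean ± SD of 3 NP-MTAza libraries and triangles Aza replicate 3. The red line falls from 69.3% at 2 to 25 bp to 62.8% at 1601 to 3200 bp and the blue line stays between 60.1 and 61.9%.

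Regions were runs of at least 5 F-MTAza-high CpGs in which these made up at least 80% of the CpGs at 90% or more in PBS. There were 1090, holding 9176 CpGs, with a median length of 86.5 bp. By main annotation 341 were promoter, 328 exon, 164 intron and 257 intergenic. The 844 regions of comparison CpGs made the same way were most often intronic (338, 40.05%), followed by intergenic (212), exon (186) and promoter (108). The median NP-MTAza level was 76.9% over the F-MTAza-high regions and 59.4% over the comparison regions. Of 1014 F-MTAza-high regions measured in all 4 held-out libraries, 86 (8.48%) were at 80% or more in each, and of 829 comparison regions 0 were, which allows a share of up to 0.362%. The larger regions held on more often, with 39 of 782 at 5 to 9 CpGs, 29 of 179 at 10 to 19 and 18 of 53 at 20 or more. Even among the last the NP-MTAza mean ran from 58.0 to 92.4%.

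The 10 regions with the most F-MTAza-high CpGs, in each of which the median CpG lay in a 24-base string with 1 copy in the genome, follow in turn. Trim71, which encodes an RNA-binding ubiquitin ligase of embryonic cells, had 48 such CpGs in 999 bp that were almost all exon (chr9:114471412-114472410). It was at 90%, 84.05% and 83.7% in NP-MTAza and at 84.8% in Aza, from 97.3% in PBS. All 4 held-out values stayed above 80%. The region at the start of Ttc34, a tetratricopeptide repeat gene, had 45 such CpGs in 392 bp (chr4:154230004-154230395) and was at 91.5%, 83.2% and 92.2% in NP-MTAza and at 88.6% in Aza. Zfp316, a zinc finger gene, had 42 in 659 bp (chr5:144016255-144016913) and was lower, at 84.5%, 82.01% and 74.4% in NP-MTAza and 76.9% in Aza. Its held-out values thus lay on both sides of 80%.

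The intergenic region 62659 bp from the start of Ankrd33 (chr15:100883363-100883691, 40 CpGs) showed how far libraries could differ. It was at 79.96%, 80.2% and 97.1% in NP-MTAza and at 75.6% in Aza, so that NP-MTAza replicate 3 lay far above the other libraries. The start of Plcl2, a phospholipase C-like gene (chr17:50648730-50649104, 39 CpGs), was the steadiest and the deepest, with 20573 NP-MTAza reads. It was at 91.9%, 92.3% and 90.9% in NP-MTAza and at 92.2% in Aza, close to its 92.5% ± 0.692 in F-MTAza and below its 96.7% ± 1.62 in PBS (SD, n = 3 each). At the start of Crmp1, which encodes a collapsin response mediator of axon growth (chr5:37633439-37633839, 38 CpGs), the 3 NP-MTAza libraries were at 75.1%, 80.04% and 79.2% and Aza at 93.6%. There the single Aza library lay above all 3 of NP-MTAza.

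The other 4 were upstream of Rimklb, at the starts of Tox2 and Bves, and in an exon of Snx20. Upstream of Rimklb, a ligase gene (chr6:122436396-122436903, 36 CpGs), NP-MTAza was at 90.9%, 76.6% and 96.3% and Aza at 95.9%. At Tox2, an HMG-box gene (chr2:163029691-163030349, 35 CpGs), NP-MTAza was at 84.1%, 79.9% and 82.6% and Aza at 83.5%. These 2 contrast in spread, with an NP-MTAza SD of 10.2 points against 2.11 points (n = 3 each). At Bves, which encodes a membrane protein of muscle and epithelium (chr10:45055577-45055805, 34 CpGs), NP-MTAza was at 87.5%, 92.0% and 85.2% and Aza at 93.3%. In Snx20, a sorting nexin gene, the exon region (chr8:91151119-91151406, 34 CpGs) was at 89.0%, 92.9% and 83.8% in NP-MTAza and at 83.8% in Aza. Every held-out value of Trim71, Ttc34, Plcl2, Bves and Snx20 was above 80%, and each of the other 5 regions had at least 1 value under 80%.

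**Figure D5:**
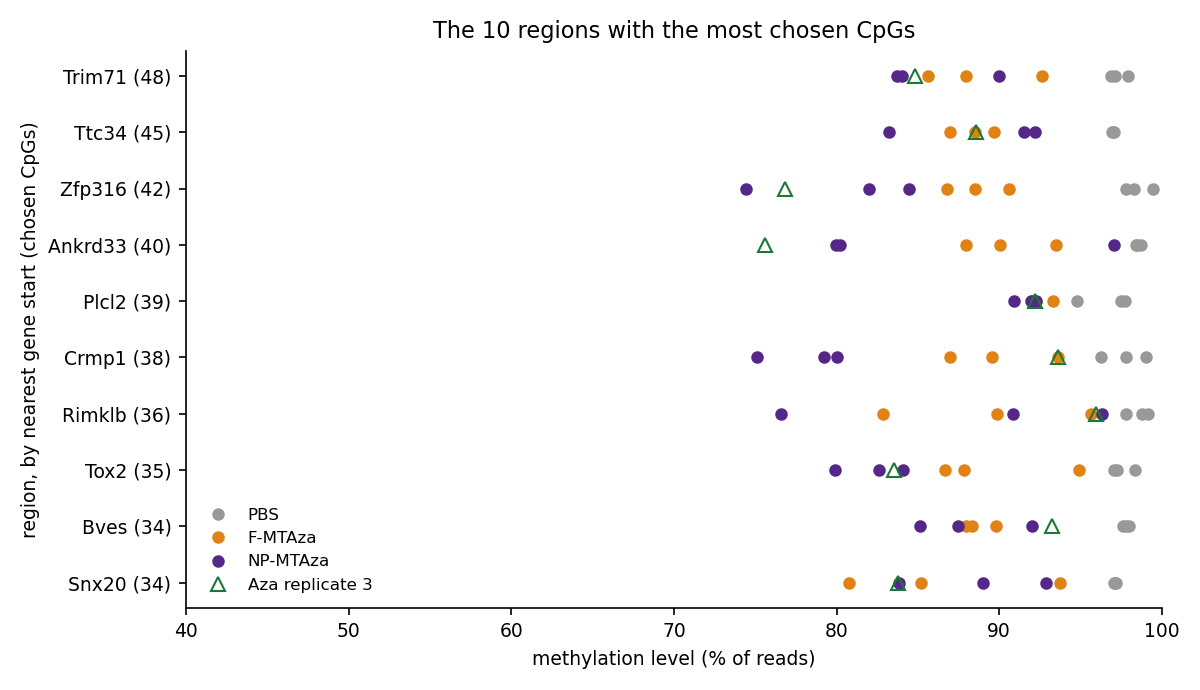
Methylation level (percent of reads) of the 10 regions with the most F-MTAza-high CpGs, named by the nearest gene start with the number of such CpGs; each point is 1 library. PBS and F-MTAza chose the regions, and NP-MTAza and Aza replicate 3 did not. Plcl2 shows the least spread between libraries, and Rimklb and Ankrd33 the most, with NP-MTAza SDs of 10.2 and 9.82 points.

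For comparison, the region near Rpl26 was at 61.3%, 56.3% and 51.6% in NP-MTAza and at 53.5% in Aza, and that in Dip2a at 63.5%, 65.5% and 54.8% and at 51.4%. All values of these 2 regions lay below the lowest held-out value of the 10 F-MTAza-high regions, 74.4%. Other comparison regions with nearly as many CpGs did overlap that range. The region at Rrp7a (11 CpGs) was at 63.3%, 90.9% and 71.0% in NP-MTAza, and that at Fat1 (10 CpGs) at 72.0%, 74.6% and 86.4%.

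By gene (from 2000 bp before the start to the end of the gene), 7595 of 21281 autosomal protein-coding genes held at least 1 F-MTAza-high CpG. Of 3367 genes with 20 or more CpGs at 90% or more in PBS, 188 had 50% or more of them F-MTAza-high and 255 had none, with a median of 12.5%. The 10 genes with the highest share were Tmem200b, Ttc34, Gm266, Rbm46, Id4, Insm2, Ankrd43, Gm9945, Dact3 and Shisa3, and Ankrd43 and Gm9945 overlap and share the same CpGs. Their shares ran from 95% (19 of 20, Tmem200b) to 87.5% (28 of 32, Shisa3). Most lay in promoters, but the 23 of Dact3, an antagonist of Wnt signalling, and 14 of the 18 of Insm2, a zinc finger factor of endocrine cells, were exonic.

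Dact3 had the highest NP-MTAza mean of these genes and Rbm46, an RNA-binding gene of germ cells, the lowest. Dact3 was at 95.7%, 87.6% and 86.0% in NP-MTAza and at 82.9% in Aza. Rbm46 was at 69.4%, 73.4% and 62.2% in NP-MTAza, but at 81.5% in Aza, where Tmem200b was the lowest of the 10 at 67.2%. Id4, which encodes an inhibitor of DNA-binding helix-loop-helix factors, had its 21 CpGs at 82.7%, 77.3% and 66.2% in NP-MTAza and at 69.9% in Aza. Rbm46 had the higher share of F-MTAza-high CpGs, 90.9% against 88.5% for Dact3, so the order by share was not the order by held-out level.

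The 5 genes with the most CpGs at 90% or more in PBS and no F-MTAza-high CpG were Akap7, Zpld1, Fmnl2, Tmem2 and Zfp704. Akap7, which anchors protein kinase A, had 75 such CpGs, 33 of them comparison CpGs, and was at 54.4%, 55.4% and 57.1% in NP-MTAza and at 54.4% in Aza. The other 4 had NP-MTAza means between 52.3 and 57.2%. The median density of their CpGs was between 2 and 5, against 21.5 to 38 for the F-MTAza-high CpGs of the 10 genes above.

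Gene lists were compared by the share of their CpGs at 90% or more in PBS that were F-MTAza-high, beside 14.2% over all such CpGs. Imprinted genes had 156 of 366 (42.6%), with Grb10, a growth inhibitor expressed from 1 parental copy in most tissues, giving 46 of its 56 CpGs. Only CpGs at 90% or more in PBS were counted, so the share does not describe CpGs methylated on 1 parental copy only. Grb10 was at 86.0%, 84.6% and 84.8% in NP-MTAza and at 82.6% in Aza, so that it stayed above 80% in all 4. Gnas had 39 of 107 and was at 70.1%, 71.2% and 67.2% in NP-MTAza and 69.5% in Aza. Inpp5f had 20 of 46 and was at 72.3%, 73.4% and 69.9%, and 63.4% in Aza. Nnat had 19 of 38 and was at 79.6%, 82.9% and 65.5%, and 75.4% in Aza. Grb10 thus stood above the other 3 in each held-out library, and the whole imprinted list was at 70.5% ± 3.31 in NP-MTAza (SD, n = 3) and 68.9% in Aza. Clustered protocadherins, adhesion molecules of neurons, had 188 of 561 (33.5%). The single entry Pcdhgc5 held 142 of these 188 and 379 of the 561. Hox genes, which pattern the body axis, had 163 of 515 (31.7%), among them 62 of 153 at Hoxd3 and 16 of 20 at Hoxa13. The median density was 11 in the imprinted list, 11 in the protocadherins and 12 in the Hox genes, against 5 over all CpGs at 90% or more in PBS.

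Other lists lay nearer the share over all CpGs. Germline genes had 54 of 254 (21.3%), with 9 of 14 at Dazl, an RNA-binding protein of germ cells, and 15 of 60 at Tdrd1. Olfactory and vomeronasal receptors had 43 of 205 (21.0%), 13 of them in Olfr94. Zfp genes had 587 of 3091 (18.99%), 84 of them in Zfp316, and collagen genes 119 of 988 (12.0%). Only the first of these 4 had an NP-MTAza mean, at 68.5% ± 2.40, more than 3 points above the 62.6% ± 0.687 over all CpGs at 90% or more in PBS (SD, n = 3 each).

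Of the lists closest to the disease, kidney development genes had 161 of 884 (18.2%), polycystic kidney disease genes 40 of 259 (15.4%) and proximal tubule genes 13 of 157 (8.28%). Wt1, a transcription factor of the developing nephron, gave 37 of its 51 CpGs and was at 74.7%, 79.3% and 75.5% in NP-MTAza and at 79.2% in Aza. Lhx1, needed for early kidney tubules, gave 21 of 65. The entry Fgfr2, a fibroblast growth factor receptor, had the most CpGs of the list and gave 69 of 451 (15.3%). It was at 62.7%, 63.7% and 61.5% in NP-MTAza and 61.3% in Aza. In the annotation used this entry spans chr7:137305965-140315033, long enough to take in neighbouring genes, so its values may not be those of Fgfr2. It also holds 451 of the 884 CpGs of the list and 69 of its 161 F-MTAza-high CpGs, so the share of the list depends on it. Pax2, a transcription factor of kidney development, gave 9 of 95 (9.47%), so these 2 lay near or below the share over all CpGs. In the disease list 25 of 143 were at Bicc1 and 10 of 35 at Pkd2, which encodes polycystin-2. Genes of the DNA methylation machinery had 54 of 297 (18.2%), 14 of them at Dnmt3a and 14 at Tet3. That list was at 61.3% ± 1.17 in NP-MTAza (SD, n = 3) and 60.4% in Aza. All CpGs at 90% or more in PBS were at 62.6% ± 0.687 and 62.3%, so the list was not higher. Bicc1, Pkd2, Dnmt3a and Tet3 had NP-MTAza levels between 59.7 and 72.6% in every library.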

How the data were processed

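Per the labels, Trim Galore 0.4.4 served for trimming and Bismark 0.20.1 with Bowtie2 for alignment to mm9. The authors merged reads of both strands and deposited, per library, CpGs with 5 or more reads. Each deposited row gives methylated and total reads and the percent methylated rounded down. Levels were recomputed from the methylated and total read numbers that the authors deposited, summed over CpGs, with Python 3.11.15, numpy 2.4.6, scipy 1.17.1 and pandas 2.3.3. Figures used matplotlib 3.10.9. Repeated rows of Aza replicates 1 and 2 were summed. Groups came from the labels. A level from 20 reads carries a wide counting error, hence the depth classes.

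Held-out libraries were compared by exact sign flips. The single-CpG test was checked on simulated reads. Genes came from GENCODE vM1. The text names the 10 regions with the most F-MTAza-high CpGs, the 10 genes with the highest share and the 5 with the most CpGs and none, and up to 4 genes a list. The F-MTAza-high CpGs, the lists and the tests were chosen with earlier results of these data known. Alternatives varied reads, thresholds, weighting and libraries. Some marker promoters are not reported here.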

Additional observations from a re-analysis of the deposited data

How the results depend on the processing

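The held-out lead of the F-MTAza-high CpGs was above 0 in every held-out library under all 22 alternatives, between 10.1 and 27.0 points, the lowest for CpGs lying alone. Counts followed depth and threshold. The number of F-MTAza-high CpGs was 9368 with 40 pooled reads, 571 with 100, 23834 at 85% or more in F-MTAza, 84769 at 75% or more and 26280 where all 10 libraries had 5 reads, and leaving out one PBS or F-MTAza library at a time gave 24781 (without F-MTAza replicate 2; 32123 without replicate 3) to 42377. The share at 80% or more in NP-MTAza was 25.9% and 36.3% with 40 and 100 pooled reads, 30.4% at 85% or more in F-MTAza, 17.9% at 75%, 24.7% at 95% in PBS, 24.2% with all 10 libraries and 21.0% with 40 pooled NP-MTAza reads. It was 18.9 to 29.5% when libraries were left out, the last without NP-MTAza replicate 3. Chosen after seeing the data, CpGs alone gave 10.5% and a density of 4 to 7 gave 10.7%. F-MTAza-high CpGs called lower than PBS numbered 2612 with 10 reads in each library, 10839 with 2 libraries of each group and 16612 at 25 points (52.3%, there above the background of 45.2%), and 7051 to 8603 when libraries were left out. With the replicate block the number was 6868. Deviations at single CpGs correlated between -0.00419 and 0.00496 for same-numbered libraries and between -0.00953 and 0.0078 for the others, over 101500 CpGs. With few reads per CpG this measure can miss a pairing, so it does not settle whether the numbers pair the libraries. The share of CpGs whose 24 bases occur once differed by -0.158 points (F-MTAza-high minus comparison CpGs). This difference in share became 1.18 points with 40 pooled reads and 0.128 points at 85% or more in F-MTAza. With 100 pooled reads it was -4.37 points (66.2% against 70.6%). The other 26 of 28 values of sequence and position kept their direction. With 20 to 29 F-MTAza reads at most of these CpGs, single levels are imprecise.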
